A study of Mus musculus with 2 samples.

Results

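The genes described here are a fixed list of 39 interferon-stimulated genes and poly(ADP-ribose) polymerases (PARPs). The list was chosen with earlier results of these data known. They were found by symbol among the transcript clusters (the probe sets of an expression array) that carry a single gene symbol in the platform annotation. Of the 39 genes, 38 had such a cluster and 1, Ifi44, had none and was left out. They are 38 of 30145 named genes. Irf1 had more than 1 cluster, and its cluster with the highest mean was taken.

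Total RNA of Wisp1 KO cells was measured on 1 array and that of WT cells on 1 array. The cells were stromal cells derived from inguinal fat, kept in culture, and the C57BL/6J animals were 6 to 10 weeks old. Adipose-derived stromal cells are fibroblast-like progenitors that grow out of fat tissue. Wisp1 (now Ccn4) encodes a secreted matrix-associated protein, and the knockout is global, from mice whose exons 1 to 5 were floxed and which were crossed with a mouse labelled Cre-neo. The labels name neither the promoter that drives Cre nor the number of mice behind each culture. Both cultures were grown in DMEM with 15% fetal bovine serum, and no interferon treatment is stated for either. The title of the study concerns cartilage differentiation in heterotopic ossification, and interferon is not named in its design.

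The targeted gene Wisp1 was at 5.40 in the Wisp1 KO array and at 7.79 in the WT array on the log2 scale, a difference of -2.39. Whether all its probes lie in the deleted exons was not analysed here. Stromal markers were present on both arrays: Col1a1 was at 11.90 in Wisp1 KO and 11.40 in WT, and Thy1 at 10.43 in Wisp1 KO and 10.34 in WT. The marker Nt5e was at 3.28 in Wisp1 KO and 3.27 in WT, below the median level of all named genes, which was 4.65. With 1 array per genotype there is no replicate to set a difference against and nothing was tested, so every difference below is the Wisp1 KO value minus the WT value on the log2 scale and compares these arrays rather than the genotypes. The number of arrays limits the precision.

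Interferons are secreted when cells detect viral nucleic acid or other danger signals, and they act through cell-surface receptors, JAK kinases and STAT transcription factors. Type I interferon assembles a complex that includes STAT2 and IRF9 and binds the interferon-stimulated response element, and the response to interferon gamma works largely through the gamma-activated site. The induced genes encode sensors, transcription factors, enzymes that attack viral RNA, membrane-binding GTPases and several PARPs, enzymes that attach ADP-ribose to proteins. Fibroblast-like cells keep a low constitutive level of this program in culture.

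Promoter windows are shown because the response element is one of the sites through which interferon acts. Neighbouring relatives with and without a difference can also be compared in these windows. Windows of 300 bases, 250 before to 50 after an annotated start, came from RefSeq on GRCm38.p6 and were matched by symbol for 29 of the 39 genes. The core of the response element was searched as GAAANNGAAA on either strand. It was present in at least 1 window of 17 of those 29 genes (58.6%), against 1079 of all 27025 genes with a window (3.99%). The genes were listed as interferon-stimulated, so this share describes them and is not a finding of these arrays. The gamma-activated site, searched as TTCNNNGAA, was present in 9 of the 29 (31.0%), against 9.55% of all genes, and it overlapped a core in 1 window of the listed genes. The core version gaaactgaaa stood in windows of 8 listed genes (Ifit1, Ifit3, Stat2, Irgm2, Igtp, Gbp3, Gbp7 and Bst2) and in 71 of all genes (0.263%). A match is a description of letters, not evidence of binding. Each window below runs 5′ to 3′ on the gene's strand, and capitals mark every match to the core, where TTTCNNTTTC is the core on the opposite strand. Distances to the start are counted from the core's base furthest upstream.
Isg15 (chr4:156200769-156201068, - strand): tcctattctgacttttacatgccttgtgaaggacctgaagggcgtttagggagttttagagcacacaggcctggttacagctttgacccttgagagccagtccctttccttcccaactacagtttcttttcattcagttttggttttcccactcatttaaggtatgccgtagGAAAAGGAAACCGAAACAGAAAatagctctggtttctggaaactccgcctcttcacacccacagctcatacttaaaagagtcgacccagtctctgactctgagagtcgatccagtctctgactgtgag
Stat2 (chr10:128270248-128270547, + strand): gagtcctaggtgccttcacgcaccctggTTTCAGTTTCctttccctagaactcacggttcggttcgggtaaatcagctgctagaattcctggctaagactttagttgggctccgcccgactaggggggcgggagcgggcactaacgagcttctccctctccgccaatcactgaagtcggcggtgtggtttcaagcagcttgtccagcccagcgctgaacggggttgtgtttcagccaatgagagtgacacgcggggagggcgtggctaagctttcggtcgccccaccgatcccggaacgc
Ifit1 (chr19:34640639-34640938, + strand): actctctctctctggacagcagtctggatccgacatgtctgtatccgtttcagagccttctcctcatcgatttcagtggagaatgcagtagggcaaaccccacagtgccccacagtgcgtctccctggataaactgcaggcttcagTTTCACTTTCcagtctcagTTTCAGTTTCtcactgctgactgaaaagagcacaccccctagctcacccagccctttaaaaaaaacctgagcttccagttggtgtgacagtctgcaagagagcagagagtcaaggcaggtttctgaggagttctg
Ifit3 (chr19:34583279-34583578, + strand): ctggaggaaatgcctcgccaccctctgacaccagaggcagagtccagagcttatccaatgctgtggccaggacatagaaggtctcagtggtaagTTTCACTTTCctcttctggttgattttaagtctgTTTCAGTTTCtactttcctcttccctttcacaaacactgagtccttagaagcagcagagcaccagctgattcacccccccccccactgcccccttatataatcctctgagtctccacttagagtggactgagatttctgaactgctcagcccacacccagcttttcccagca
Irgm2 (chr11:58214727-58215026, + strand): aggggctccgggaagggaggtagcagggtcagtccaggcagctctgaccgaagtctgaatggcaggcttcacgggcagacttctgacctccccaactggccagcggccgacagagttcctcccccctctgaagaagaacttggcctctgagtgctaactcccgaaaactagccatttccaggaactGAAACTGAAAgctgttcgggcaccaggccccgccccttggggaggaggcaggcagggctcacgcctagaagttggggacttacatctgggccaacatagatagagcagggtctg
Igtp (chr11:58199306-58199605, + strand): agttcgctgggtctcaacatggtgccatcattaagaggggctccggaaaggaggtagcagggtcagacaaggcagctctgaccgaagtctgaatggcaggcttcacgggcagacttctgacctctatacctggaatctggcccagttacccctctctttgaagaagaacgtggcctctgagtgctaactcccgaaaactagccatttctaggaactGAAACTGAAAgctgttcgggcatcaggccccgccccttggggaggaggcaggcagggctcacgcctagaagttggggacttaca
Irgm1 (chr11:48871371-48871670, - strand): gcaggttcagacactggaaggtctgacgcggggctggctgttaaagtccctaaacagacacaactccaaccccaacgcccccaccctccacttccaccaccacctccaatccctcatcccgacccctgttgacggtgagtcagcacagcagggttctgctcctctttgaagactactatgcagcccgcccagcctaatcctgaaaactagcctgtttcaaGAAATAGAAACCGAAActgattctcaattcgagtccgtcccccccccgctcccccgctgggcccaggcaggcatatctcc

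The Isg15 window holds 3 overlapping cores in a row, at 78, 72 and 66 bases before the start. The Ifit1 and Ifit3 windows each hold a pair of cores on the opposite strand, while no core was found in either window of Ifit2. The Irgm2 and Igtp windows share an unbroken identical stretch of 61 bases, against 11 bases shared by Irgm1 with either of them.

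Most of the listed genes were slightly higher in the Wisp1 KO array. Because the list was chosen with earlier results of these data known, its counts and shares describe it. They are not independent evidence of a difference. Of the 38 measured genes 30 were higher, 6 were lower and 2 had identical values on the arrays, where 47.0% of all 30145 named genes were higher. The median difference was 0.18, against 0.00 over all named genes and 0.03 over the 15073 with a mean at the median level or higher, of which 56.9% were higher. The differences ran from -0.35 for Ifit2 to 0.50 for Iigp1, so no listed gene reached 1.5-fold in either direction. Without the PARPs the median of the other 33 genes was 0.16.

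A difference of at least 0.32 on the log2 scale, which is 25% higher or 20% lower on the linear scale, was used as a threshold to count genes. In the higher direction 10 of the 38 (26.3%) passed it, against 2.72% of all named genes and 3.89% of those at the median level or higher. In the lower direction 1 of the 38 passed it, against 3.06% of all named genes and 2.64% of those at the median level or higher. The 10 higher genes were Iigp1, Oasl2, Mx2, Rtp4, Irgm2, Stat2, Usp18, Isg20, Xaf1 and Ifit1, and the lower one was Ifit2. These 10 came from 7 of the 10 functional groups described below, and no group passed the threshold with all of its members. After quantile normalization of the arrays 6 of the 38 passed it instead of 10, as Ifit1, Isg20, Usp18 and Xaf1 then lay just under it.

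**Figure D1:**
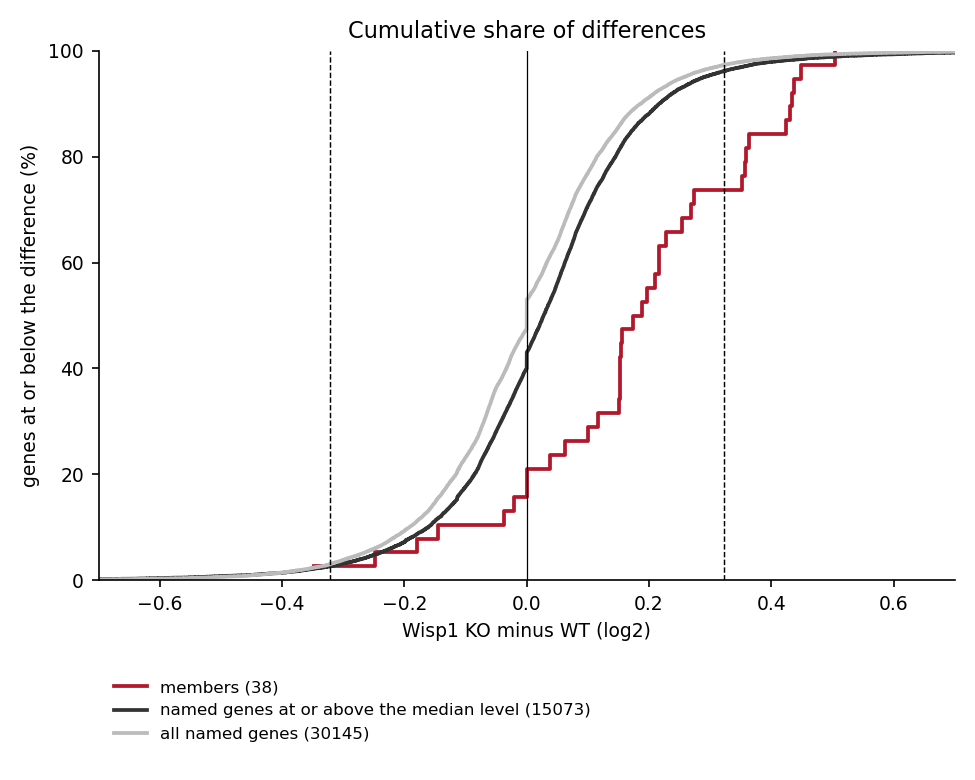
Cumulative share of genes, in percent, at or below each difference (Wisp1 KO minus WT, log2) for the 38 listed genes, for named genes with a mean at the median level or higher and for all named genes. Dashed lines mark the threshold of 0.32; the curve of the listed genes lies to the right over most of its course, with a median of 0.18 against 0.00 for all named genes, and it meets the others at the low end.

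The median difference lay above that of all named genes at most levels, but not for the 2 dimmest genes. Between 6 and 7 on the log2 scale lay 17 of the listed genes, of which 15 were higher, with a median difference of 0.23 against 0.04 over all 3798 named genes of that band, of which 59.6% were higher. Between 5 and 6, 7 of 8 were higher, with a median of 0.15 against 0.02 over the band, of which 53.9% were higher. Between 8 and 9, 3 of 5 were higher, with a median of 0.15 against 0.04. That count is no more than the share of the band, of which 60.3% were higher. Neither of the 2 genes between 3 and 4, Mx1 and Rsad2, was higher, where 35.8% of that band were. In all, 4 listed genes (Mx1, Rsad2, Oas3 and Oas2) lay below the median level, where RMA values change little with the amount of RNA.

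**Figure D2:**
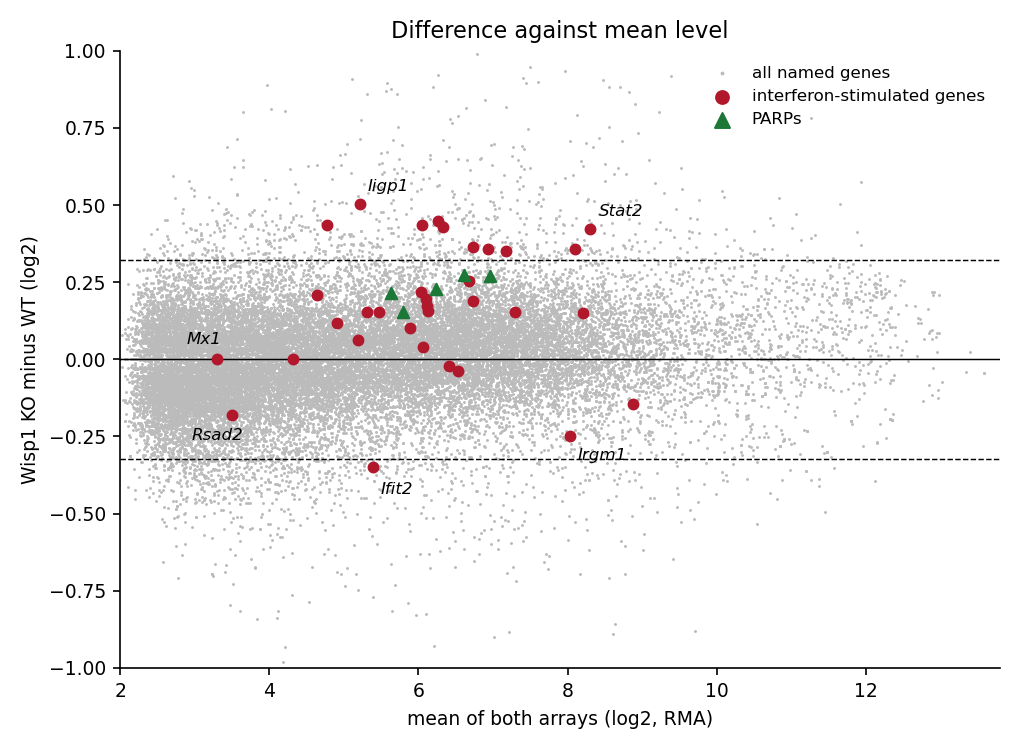
Difference (Wisp1 KO minus WT, log2) against the mean of both arrays (log2) for all named genes, with the interferon-stimulated genes as circles and the PARPs as triangles. Dashed lines mark the threshold of 0.32 and 27 named genes lie beyond the vertical range; 10 of the 38 listed genes lie above the upper line and Ifit2 lies below the lower one.

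The cytoplasmic sensors of viral RNA were all a little higher. Ddx58 (RIG-I, which detects RNA ends made by viruses) was at 7.38 in the Wisp1 KO array and 7.22 in the WT array, a difference of 0.15. Ifih1 (MDA5, which detects long double-stranded RNA) was at 5.55 in Wisp1 KO and 5.40 in WT, also 0.15. Dhx58 (LGP2, a relative that lacks the signalling domain and modulates the other two) was at 5.94 in Wisp1 KO and 5.84 in WT. All 3 sensors lay within 0.10 to 0.15, and none reached the threshold. Of named genes at the median level or higher, 56.9% were higher.

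Among transcription factors, the components of the type I interferon complex were furthest apart. Stat2 was at 8.52 in Wisp1 KO and 8.09 in WT, a difference of 0.42 or 1.34-fold. Its partner Irf9 was at 6.81 in Wisp1 KO and 6.55 in WT, a difference of 0.25. Irf7, which amplifies interferon production, was at 6.83 in Wisp1 KO and 6.64 in WT. Irf1, a factor strongly induced by interferon gamma, was at 6.09 in Wisp1 KO and 6.05 in WT, a difference of 0.04 that was -0.07 when its clusters were averaged. All 4 factors were thus higher on their main cluster, in the order Stat2, Irf9, Irf7 and Irf1. Of named genes at the median level or higher, 56.9% were higher. No core was found in the windows of Irf1, Irf7 or Irf9, while the Stat2 window printed above has 1, at 222 bases before the start.

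The ISG15 system showed unequal differences in the modifier and its protease. Isg15, a ubiquitin-like protein that is attached to other proteins during the response, was at 5.39 in Wisp1 KO and 5.23 in WT, a difference of 0.15. Usp18, which removes ISG15 and dampens signalling from the type I interferon receptor, was at 6.91 in Wisp1 KO and 6.54 in WT, a difference of 0.36. Isg15 has 3 cores in its window and stayed under the threshold.

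The IFIT genes, which encode proteins that bind viral RNA and one another, went in different directions. Ifit1, which recognises RNA caps that lack host methylation, was at 7.35 in Wisp1 KO and 7.00 in WT, a difference of 0.35. Ifit3, its binding partner, was at 6.40 in Wisp1 KO and 6.42 in WT, a difference of -0.02. Ifit2, which is linked to apoptosis, was at 5.22 in Wisp1 KO and 5.57 in WT, a difference of -0.35 or 1.27-fold lower. They lie side by side on chromosome 19 in the order Ifit2, Ifit3, Ifit1, with 3 relatives (Ifit1bl1, Ifit3b and Ifit1bl2) between Ifit3 and Ifit1. Ifit1 and Ifit3, whose windows both hold a pair of cores, differed by 0.35 and -0.02. Ifit3 has a near-identical copy in Ifit3b, so its value is uncertain as a separate measurement.

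Enzymes that act on RNA and nucleotides were mostly higher, with 6 of 8 higher, 1 lower and 1 the same. Of all named genes 47.0% were higher, and 56.9% of those at the median level or higher. Oasl2, an oligoadenylate synthetase-like gene, was at 6.48 in Wisp1 KO and 6.03 in WT, a difference of 0.45. Isg20, an exonuclease that degrades viral RNA, was at 7.11 in Wisp1 KO and 6.76 in WT, a difference of 0.36. Only these 2 of the 8 reached the threshold, which 2.72% of all named genes passed as higher. Oas2, a synthetase of the small oligoadenylates that activate RNase L, was at 4.75 in Wisp1 KO and 4.54 in WT, a difference of 0.21. Eif2ak2 (PKR, a kinase that halts translation on binding double-stranded RNA) was at 8.29 in Wisp1 KO and 8.14 in WT, a difference of 0.15. Oasl1, known in mouse as a translational inhibitor of Irf7, was at 4.97 in Wisp1 KO and 4.85 in WT. Cmpk2, a mitochondrial nucleotide kinase, was at 5.22 in Wisp1 KO and 5.15 in WT. The remaining 2 were not higher in Wisp1 KO. Rsad2 (viperin, which makes a chain-terminating nucleotide) was at 3.41 in Wisp1 KO and 3.59 in WT, a difference of -0.18. Oas3 held 4.32 on both arrays. Rsad2 and Oas3 were below the median level of named genes, and both have a core in their window, at 120 and 75 bases before the start.

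The MX genes encode dynamin-like GTPases that block virus entry and replication, and RefSeq lists both Mx1 and Mx2 of the C57BL/6J assembly as transcribed pseudogenes. Mx2 was at 4.99 in Wisp1 KO and 4.55 in WT, a difference of 0.44. Mx1 held the same value, 3.29, on both arrays. Exactly equal values were found for 1705 of the 30145 named genes, and the origin of such ties was not tested.

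**Figure D3:**
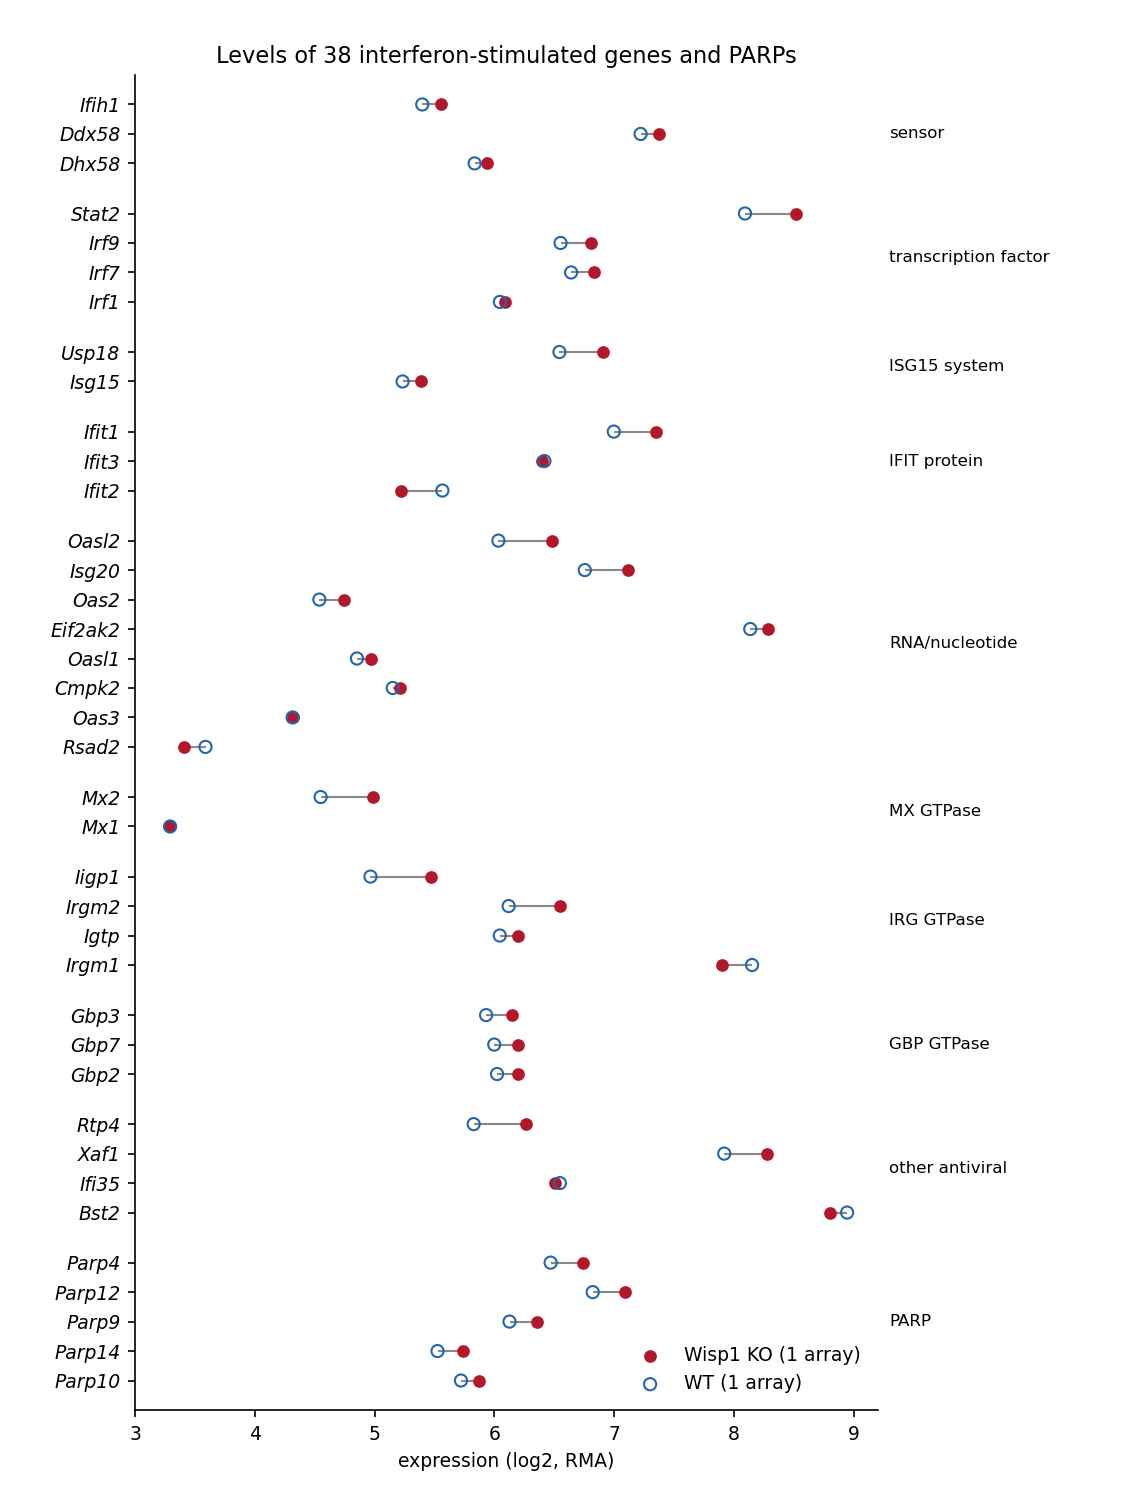
Expression (log2, RMA) of the 38 listed genes by functional group, with filled points for the Wisp1 KO array and open points for the WT array and a line joining them. The filled point lies to the right for 30 genes and to the left for 6 (Ifit2, Irgm1, Rsad2, Bst2, Ifi35 and Ifit3), and the points coincide for Mx1 and Oas3.

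The immunity-related GTPases (IRGs), which act on the membranes around intracellular pathogens, held both the highest difference of the list and one of the lowest. Iigp1 (Irga6, an effector that coats the vacuoles of parasites) was at 5.47 in Wisp1 KO and 4.97 in WT, a difference of 0.50 or 1.42-fold, which ranked 201 among all named genes. Irgm2, a regulator that keeps effectors off the cell's own membranes, was at 6.55 in Wisp1 KO and 6.12 in WT, a difference of 0.43. Igtp (Irgm3), another such regulator, was at 6.20 in Wisp1 KO and 6.05 in WT, a difference of 0.16. The third regulator, Irgm1, went the other way. It was at 7.90 in Wisp1 KO and 8.15 in WT, a difference of -0.25. Igtp and Irgm2 are adjacent on chromosome 11, and their printed windows hold the same core in the same surroundings. Irgm1 lies elsewhere on chromosome 11 and has a pair of overlapping cores close to its start.

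The 3 listed guanylate-binding proteins, large GTPases that attack pathogen vacuoles and membranes, lay in a narrow range. Gbp3 was at 6.15 in Wisp1 KO and 5.93 in WT, a difference of 0.22. Gbp7 was at 6.20 in Wisp1 KO and 6.00 in WT, a difference of 0.20. Gbp2 was at 6.20 in Wisp1 KO and 6.02 in WT, a difference of 0.17. The 3 genes were higher by nearly the same amount, under the threshold, where 56.9% of named genes at the median level or higher were higher. They lie together on chromosome 3, with Gbp2b between Gbp3 and Gbp2, and each has a core in a window, between 39 and 59 bases before the start at its nearest. Relatives outside the list spread wider, from 0.06 for the cluster shared by Gbp2b and Gbp5 to 0.54 for that of Gbp10 and Gbp6. Probes shared between such related genes were not examined.

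The other antiviral genes were split, with 2 past the threshold as higher and 2 lower by less. Of all named genes 47.0% were higher and 2.72% passed the threshold as higher. Rtp4, an interferon-induced chaperone of receptor proteins, was at 6.26 in Wisp1 KO and 5.83 in WT, a difference of 0.43. Xaf1, which opposes the apoptosis inhibitor XIAP, was at 8.28 in Wisp1 KO and 7.92 in WT, a difference of 0.36. Ifi35, a partner of the interferon-induced protein NMI, was at 6.51 in Wisp1 KO and 6.55 in WT, a difference of -0.04. Bst2 (tetherin, which holds budding virus at the cell surface) was at 8.80 in Wisp1 KO and 8.95 in WT, a difference of -0.14. The Bst2 window holds 2 cores.

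All 5 PARPs were higher, in a narrow range from 0.15 to 0.27, and none reached the threshold. Parp4, the PARP of vault particles, was at 6.74 in Wisp1 KO and 6.47 in WT, a difference of 0.27. Parp12, which adds single ADP-ribose units and is found at the Golgi, was at 7.09 in Wisp1 KO and 6.82 in WT, also 0.27. The PARP group thus had a median of 0.23, with 5 of 5 higher, where 47.0% of all named genes were higher. All 5 lay above the median level of named genes, and 56.9% of the genes at that level or higher were higher. Parp9, which works with the ubiquitin ligase DTX3L, was at 6.36 in Wisp1 KO and 6.13 in WT, a difference of 0.23. Parp14, a macrodomain PARP linked to STAT signalling, was at 5.74 in Wisp1 KO and 5.53 in WT, a difference of 0.22. Parp10, a mono-ADP-ribosyl transferase, was at 5.88 in Wisp1 KO and 5.72 in WT, a difference of 0.15. Parp14 and Parp9 lie on chromosome 16 with only Dtx3l between them, and Dtx3l was 0.27 higher, at 6.90 in Wisp1 KO and 6.62 in WT, so these 3 neighbours lay within 0.22 to 0.27.

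Neighbouring genes of the list did not always share a difference. The Parp14, Dtx3l and Parp9 block was nearly uniform, and so were the listed genes Gbp7, Gbp3 and Gbp2. Gbp2b, between Gbp3 and Gbp2, was measured only in a cluster shared with Gbp5, which differed by 0.06. In other neighbouring pairs the differences were unequal: Oasl2 and Oasl1 on chromosome 5 differed by 0.45 and 0.12, and Oas2 and Oas3 on the same chromosome by 0.21 and 0.00. Mx1 and Mx2 on chromosome 16, with Fam3b between them, differed by 0.00 and 0.44. Rsad2 and Cmpk2, adjacent on chromosome 12, differed by -0.18 and 0.06. The differences of genes with and without the response element core overlapped. The 17 measured genes with a core in a window had a median difference of 0.15, with 12 higher and 3 past the threshold as higher, and the 11 measured genes with a window but no core had a median of 0.19, with 9 higher and 3 past the threshold as higher.

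Interferon genes and their receptors, which act upstream of the listed genes, had medians near 0. Of 17 interferon genes 5 were higher (29.4%), 11 lower and 1 the same, with a median of -0.06. None passed the threshold and 14 lay below the median level. Among all named genes 47.0% were higher, 2.72% passed the threshold as higher and 3.06% as lower. Of named genes with a mean between 3 and 4, 35.8% were higher. The pair furthest apart were Ifna13, at 2.38 in Wisp1 KO and 2.66 in WT, and Ifnz, at 5.53 in Wisp1 KO and 5.80 in WT. Ifnb1 was at 3.42 in Wisp1 KO and 3.45 in WT, and Ifng at 3.14 in Wisp1 KO and 3.22 in WT. Receptors, JAKs and STATs had a median of 0.03 over 10 genes, none past the threshold. Of these 6 were higher (60.0%, near the 56.9% of named genes at the median level or higher) and 4 lower. Their furthest members were Jak2, at 7.94 in Wisp1 KO and 7.66 in WT, and the lambda interferon receptor gene Ifnlr1, at 4.03 in Wisp1 KO and 4.27 in WT. The type I receptor genes Ifnar1 and Ifnar2 were higher by 0.16 and 0.18, and the interferon gamma receptor genes Ifngr1 and Ifngr2 differed by 0.04 and -0.23.

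Nucleic acid sensing and relay genes had a median of 0.07 over 19. Of these 11 were higher (57.9%, near the 56.9% of named genes at the median level or higher) and 6 lower. Past the threshold as higher was 1 (5.26%), against 3.89% of named genes at the median level or higher. That gene was Sting1, the adaptor of cytosolic DNA sensing, at 8.16 in Wisp1 KO and 7.72 in WT, a difference of 0.44. Zbp1, a sensor of left-handed nucleic acid helices, was next at 6.90 in Wisp1 KO and 6.59 in WT, a difference of 0.31. The DNA sensor gene Mb21d1 (cGAS) held 3.78 on both arrays, below the median level of named genes. Negative regulators had a median of 0.10 over 10 genes, with 7 higher (70.0%), 1 lower and 1 (10.0%) past the threshold as higher. Among named genes at the median level or higher these shares were 56.9% and 3.89%. The negative regulator past the threshold was Socs3, a feedback inhibitor of JAK kinases, at 6.71 in Wisp1 KO and 6.39 in WT. Its difference was 0.32, and Nlrx1 followed at 0.14.

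Other interferon-stimulated genes were higher in part. Of 42 measured, 30 were higher, 11 lower and 1 the same, the median was 0.10, and 9 (21.4%) passed the threshold as higher and 1 as lower. Among named genes at the median level or higher, 56.9% were higher and 3.89% passed it as higher. Over all named genes these shares were 47.0% and 2.72%. Of the 42 genes 8 lay below the median level, among them Ddx60 and Ifitm1, which passed the threshold on dim values. The Schlafen genes Slfn5 and Slfn2, regulators of immune cell quiescence and viral replication, had the highest differences, larger than that of any gene of the main list. Slfn5 was at 7.73 in Wisp1 KO and 7.04 in WT, a difference of 0.69, and Slfn2 at 5.98 in Wisp1 KO and 5.36 in WT, a difference of 0.62. Rnf213 (0.48), Slfn8 (0.45), Samd9l (0.42), Slfn9 (0.40), Ddx60 (0.38), Uba7 (0.36) and Lgals3bp (0.36) also passed the threshold as higher. Uba7 encodes the activating enzyme for ISG15. The lower gene was Ifitm1, at 4.25 in Wisp1 KO and 4.61 in WT, and its relatives Ifitm2 and Ifitm3 differed by -0.03 and -0.07. The chemokine gene Cxcl10, a sensitive target of interferon, held 3.61 on both arrays. The related gene Cxcl9 was at 3.98 in Wisp1 KO and 3.82 in WT, a difference of 0.16. Both lay below the median level of 4.65, where RMA values change little with the amount of RNA.

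Other IRG and GBP genes had a median of 0.26 over 8 measured, with 5 higher (62.5%), 2 lower and 1 the same. Of named genes at the median level or higher, 56.9% were higher and 3.89% passed the threshold as higher. Gbp11 was at 5.19 in Wisp1 KO and 4.82 in WT, a difference of 0.37, the only member past the threshold, and Gbp4 followed at 0.31. Other PARPs and ADP-ribose enzymes had a median of 0.06 over 15, with 10 higher (66.7%), 5 lower and none past the threshold. They were led by Zc3hav1 (the antiviral zinc finger protein ZAP, an inactive PARP) at 0.27 and Parp16, a PARP of the endoplasmic reticulum, at 0.24. The tankyrase genes Tnks and Tnks2 differed by 0.09 and 0.05.

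**Figure D4:**
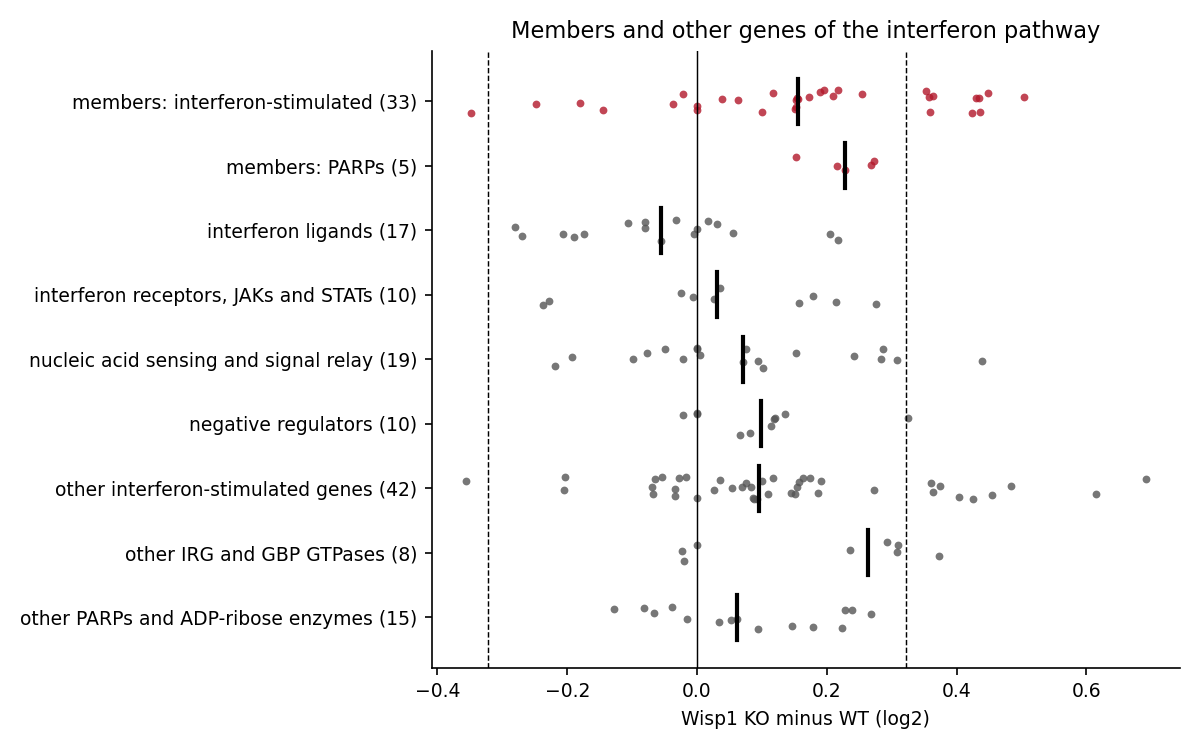
Difference (Wisp1 KO minus WT, log2) of each measured gene in the listed interferon-stimulated genes, the listed PARPs and 7 further lists of pathway genes, with the number of genes in brackets and a bar at each median. Dashed lines mark the threshold of 0.32; the medians run from -0.06 for interferon genes to 0.26 for other IRG and GBP GTPases.

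Markers of some other cell types also differed between the arrays. Over all named genes, 47.0% were higher, 2.72% passed the threshold as higher and 3.06% as lower. Of 18 macrophage markers 10 were higher, 6 lower and 2 the same, with a median of 0.05, and 6 passed the threshold as higher. These were Lyz2 (7.43 in Wisp1 KO and 6.14 in WT), Fcer1g (6.02 in Wisp1 KO and 5.13 in WT), Ctss (4.82 in Wisp1 KO and 4.20 in WT), Cd68 (6.35 in Wisp1 KO and 5.77 in WT), Tyrobp (5.09 in Wisp1 KO and 4.57 in WT) and C1qb (5.30 in Wisp1 KO and 4.97 in WT). On the linear scale the summed level of all 18 macrophage markers was 627 in Wisp1 KO and 441 in WT, and 11 of the 18 lay below the median level of named genes. The pan-leukocyte marker Ptprc held 2.86 on both arrays, Csf1r was at 4.62 in Wisp1 KO and 4.61 in WT, and Adgre1 at 3.25 in Wisp1 KO and 3.33 in WT. Macrophages express many interferon-stimulated genes, and the part of these markers in the differences above was not tested. In such bulk samples, fewer cells of a type and less RNA per cell cannot be told apart.

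Lymphocyte markers had a median of -0.07 over 10 genes, 3 higher and 7 lower, with a summed linear level of 134 on both arrays. All 10 lay below the median level of named genes, and Cd79a (0.28) and Ms4a1 (-0.25) were furthest apart. Dendritic cell markers had a median of 0.01 over 8 genes, with summed levels of 89.5 in Wisp1 KO and 90.8 in WT and Xcr1 (-0.27) and Clec9a (0.16) furthest apart. All 8 dendritic cell markers lay below the median level. Among them was Siglech, the marker of the plasmacytoid cells that secrete type I interferon, at 3.87 in Wisp1 KO and 3.99 in WT. Endothelial markers had 5 of 8 higher, with summed levels of 187 in Wisp1 KO and 173 in WT, and 6 of the 8 lay below the median level. Cdh5 and Emcn, both below that level in mean, were each 0.80 higher while Pecam1 differed by 0.08. Adipocyte markers had 2 of 5 higher, with summed levels of 89.3 in Wisp1 KO and 114 in WT, and 4 of the 5 lay below the median level. Retn (-1.08) and Adipoq (-0.64), both below that level in mean, were past the threshold as lower. Pericyte and smooth muscle markers had 2 of 8 higher, with summed levels of 7282 in Wisp1 KO and 8188 in WT. Mcam (-0.69), Myh11 (-0.51) and Cspg4 (-0.37) were past the threshold as lower and Des (0.41) past it higher. Of 10 stromal markers 8 were higher, with summed levels of 13862 in Wisp1 KO and 12081 in WT, and Lum (0.60), Col1a2 (0.52) and Col1a1 (0.50) were past it as higher. The part of these lists in the differences of the interferon-stimulated genes was not tested.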

How the data were processed

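The deposited values are log2 expression per transcript cluster from the authors, and the submitters' processing notes name RMA and Partek, with no version. RNA was labelled with the Affymetrix GeneChip WT PLUS kit, per the labels. The log2 scale follows from the range of the values, 1.74 to 13.65 in the Wisp1 KO array and 1.88 to 13.62 in the WT array. RMA makes array distributions alike and compresses differences of dim genes.

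Of 65956 clusters, 30604 had 1 symbol in the platform annotation, which can be old, 2146 had several and 33206 had none. Repeated mentions of a symbol were merged, clusters with several symbols were left out, and the cluster with the highest mean stood for a gene. RefSeq tables of GRCm38.p6 gave gene order, gene type and promoter windows. The genome build of the array is not given in the sources used here.

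Differences were Wisp1 KO minus WT, with no further normalization and no test. Genes named were all listed genes, and of each other list those past a difference of 0.32 and at least the 2 furthest apart. Outside that rule are Ifnb1, Ifng, the interferon receptor genes, Mb21d1, Cxcl9, Cxcl10, Ifitm2, Ifitm3, Dtx3l and the tankyrases. Thy1, Nt5e, Ptprc, Csf1r, Adgre1, Siglech and Pecam1 are outside it too. All of these were picked with their values known. The members and lists were chosen with earlier results of these data known. Protein sequences were not used here. The counting of calls was checked on simulated arrays without noise, into which known changes were put. That checks the arithmetic and not whether a difference between these arrays is reliable. The alternatives were median centring, quantile normalization, loess centring (span 0.3), the mean over clusters, clusters with several symbols kept, a level filter, other folds and the mean of members. Tools were matplotlib 3.10.9, statsmodels 0.14.6, pandas 2.3.3 and numpy 2.4.6 on Python 3.11.15.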

Additional observations from a re-analysis of the deposited data

How the results depend on the processing

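The median difference of the 38 genes stayed positive under each alternative run, from 0.14 after quantile normalization to 0.19 over the 34 genes at or above the median level. The number past the threshold of 0.32 as higher was 10, but 6 after quantile normalization, where 2.54% of all named genes passed, and 7 after loess centring, where 2.57% did; in each case the genes lost lay just under the threshold. At 1.1-fold 26 genes were higher and 4 lower, against 16.3% and 16.6% of all named genes, and at 1.5-fold 0 were higher and 0 lower, against 0.401% and 0.352%. The genes higher by any amount numbered 29 to 32 of the 38, where 47.0% of all named genes were higher as deposited. The 32 came after quantile normalization and loess centring, which moved the ties Mx1 and Oas3 just above 0, to 0.03 and 0.01. The count was 29 when clusters of a gene were averaged, since Irf1 then changed sign. With the level filter it was 29 of 34. All 5 PARPs were higher after quantile normalization and after loess centring. The other alternatives of normalization and cluster choice could not move them: the median difference over all named genes was already 0, none of the listed genes lay in a cluster with several symbols, and Irf1 alone had more than 1 cluster. No paired analysis was possible because each genotype has 1 array and no test was made. Signal limits what can be said of Mx1, Rsad2, Oas3 and Oas2, which lie below the median level of named genes.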

Other observations

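Some interferon-induced genes share a transcript cluster with a relative and so are in none of the counts above. The cluster of Gbp10 and Gbp6 was at 6.26 in the Wisp1 KO array and 5.72 in the WT array, a difference of 0.54. The cluster that lists Ifi203, an interferon-induced PYHIN family gene, with 2 further symbols was at 5.71 in Wisp1 KO and 5.25 in WT, a difference of 0.46. Clusters of the IRG genes Tgtp1 and Tgtp2 differed less, by 0.13 and 0.06, and that of Gbp2b and Gbp5 by 0.06. These genes were chosen after their values were seen.

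Gm12248, whose difference of 1.89 (6.21 in Wisp1 KO and 4.32 in WT) ranked 2 among all named genes, lies on chromosome 11 a few genes before the interferon-induced GTPase genes Gm12250 (Irgb10), Igtp and Irgm2. In RefSeq order the genes from Gm12248 to Irgm2 differed by 1.89, 0.20 (Cnot8), 0.10 (Gemin5), 0.18 (Mrpl22), 0.31 (Gm12250), 0.16 (Igtp) and 0.43 (Irgm2). All 7 were higher in the Wisp1 KO array, and this block was picked after the values were seen.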
